A study of Mus musculus with 14 samples.

Results

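The genes described here are the Eph receptors, their ephrin ligands, the semaphorins, and the plexins and neuropilins that receive semaphorins. They were taken by name from the count table, as all mouse genes of the Epha, Ephb, Efna, Efnb, Sema (classes 3 to 7) and Plxn families, plus Nrp1 and Nrp2. The rule found 53 genes of the 24454 identifiers in the table: 14 Eph receptors, 8 ephrins, 20 semaphorins and 11 plexins and neuropilins.

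RNA was sequenced from 5 cell populations sorted by FACS from pooled forelimb buds of Sox9 IRES-EGFP mouse embryos, an allele whose EGFP reports Sox9, on a mixed Swiss Albino background with both sexes. LMPs are limb bud mesenchymal progenitors and OCPs are osteochondral progenitors. All 5 gates excluded dead cells (7AAD) and cells with blood, endothelial or epithelial antigens (Ter119, CD45, Gr1, CD11b, CD31, EpCam). Among EGFP-negative, PDGFRα-positive cells, S9-JAG1+ LMPs carried JAG1 and lacked SCA-1, and S9-SCA-1+ cells carried SCA-1 without JAG1. S9-Pαhi LMPs, also EGFP-negative, were high for PDGFRα without JAG1 or SCA-1. OCPs were EGFP-positive and PDGFRα-high. These 4 populations were sorted at E10.5 (days of embryonic development). Chondroblasts (S9+PαhiCol2a1+) were sorted through the OCP gate at E11.5, so population and stage cannot be told apart for them. Each population had 3 libraries, except S9-SCA-1+ cells, which had 2 (replicates 2 and 3). The labels do not say what a replicate number stands for, so p values measure the spread between these sorted pools.

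Eph receptors are receptor tyrosine kinases, and ephrins are ligands held on the surface of the neighbouring cell, by a lipid anchor in ephrin-A and by a transmembrane segment in ephrin-B. Binding at cell contacts signals into both cells, which is known to drive repulsion, sorting of cell groups and sharp tissue borders. Semaphorins of class 3 are secreted and mostly bind a neuropilin that is held in a complex with a plexin, whereas those of the other vertebrate classes are anchored in the membrane and bind plexins directly. In the limb bud these families are known from the routes of motor and sensory axons, from blood vessels, and from the grouping of mesenchymal cells.

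Library totals lay between 20316583 and 29162751 counts, so that 3 counts, the floor below which a gene was treated as not distinguishable from absent, stood for 0.101 to 0.149 CPM (counts scaled to a common library total). Levels are CPM, or CPM per kb of exon where genes are compared with each other. Genes behind the gates were checked first. Sox9 had 437 ± 7.04 CPM (SD, n = 3) in OCPs and 34.8 ± 2.46 CPM in S9-JAG1+ LMPs, Jag1 was highest in S9-JAG1+ LMPs (296 ± 67.9 CPM) and had 119 ± 17.5 CPM in chondroblasts, and Ly6a, which encodes SCA-1, was highest in S9-SCA-1+ cells at only 3.23 ± 0.184 CPM (SD, n = 2). Pdgfra had 442 ± 85.0 CPM in S9-Pαhi LMPs, 718 ± 44.8 in OCPs and 864 ± 88.3 in chondroblasts (SD, n = 3). In S9-JAG1+ LMPs it had 247 ± 1.12 CPM, and in S9-SCA-1+ cells 34.4 ± 14.7 (SD, n = 2). Col2a1 had 989 ± 271 CPM in OCPs and 1536 ± 315 in chondroblasts. Of the genes behind the gates only Jag1 passed the limits given below between chondroblasts and OCPs. S9-SCA-1+ libraries stood apart in 6 of 6 myoblast marker genes (Pax3, Lbx1, Met, Myf5, Myod1, Pax7), whose sum was 1496 to 1500 CPM there and 1.93 to 10.7 CPM in the other 12 libraries. Globin and other red blood cell RNA summed to 139 CPM in S9-SCA-1+ replicate 2 and 3971 CPM in replicate 3, against 1.43 to 92.6 CPM elsewhere. In bulk RNA, fewer cells that express a gene and less RNA per cell cannot be told apart.

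Of the 53 members, 51 passed the filter on low counts. Epha10 (at most 5 counts in a library) and Plxnb3 (at most 3 counts) did not. In a joint test of the 5 populations, 48 of the 51 passed the limit (adjusted p up to 0.1), which 74.8% of all 15125 genes tested also passed. The 3 others were Efna4, Plxna1 and Sema3g (adjusted p = 0.75, 0.264 and 0.345, quasi-likelihood test of edgeR, Benjamini-Hochberg adjustment). For 33 of the 51 (64.7%), every library of the highest population lay above all other libraries, as for 33.1% of all genes tested. That population was chondroblasts for 14 members (13.2% of all genes), S9-JAG1+ LMPs for 9 (6.73%), S9-SCA-1+ cells for 6 (10.8%), S9-Pαhi LMPs for 3 (1.16%) and OCPs for 1 (1.24%).

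**Figure D1:**
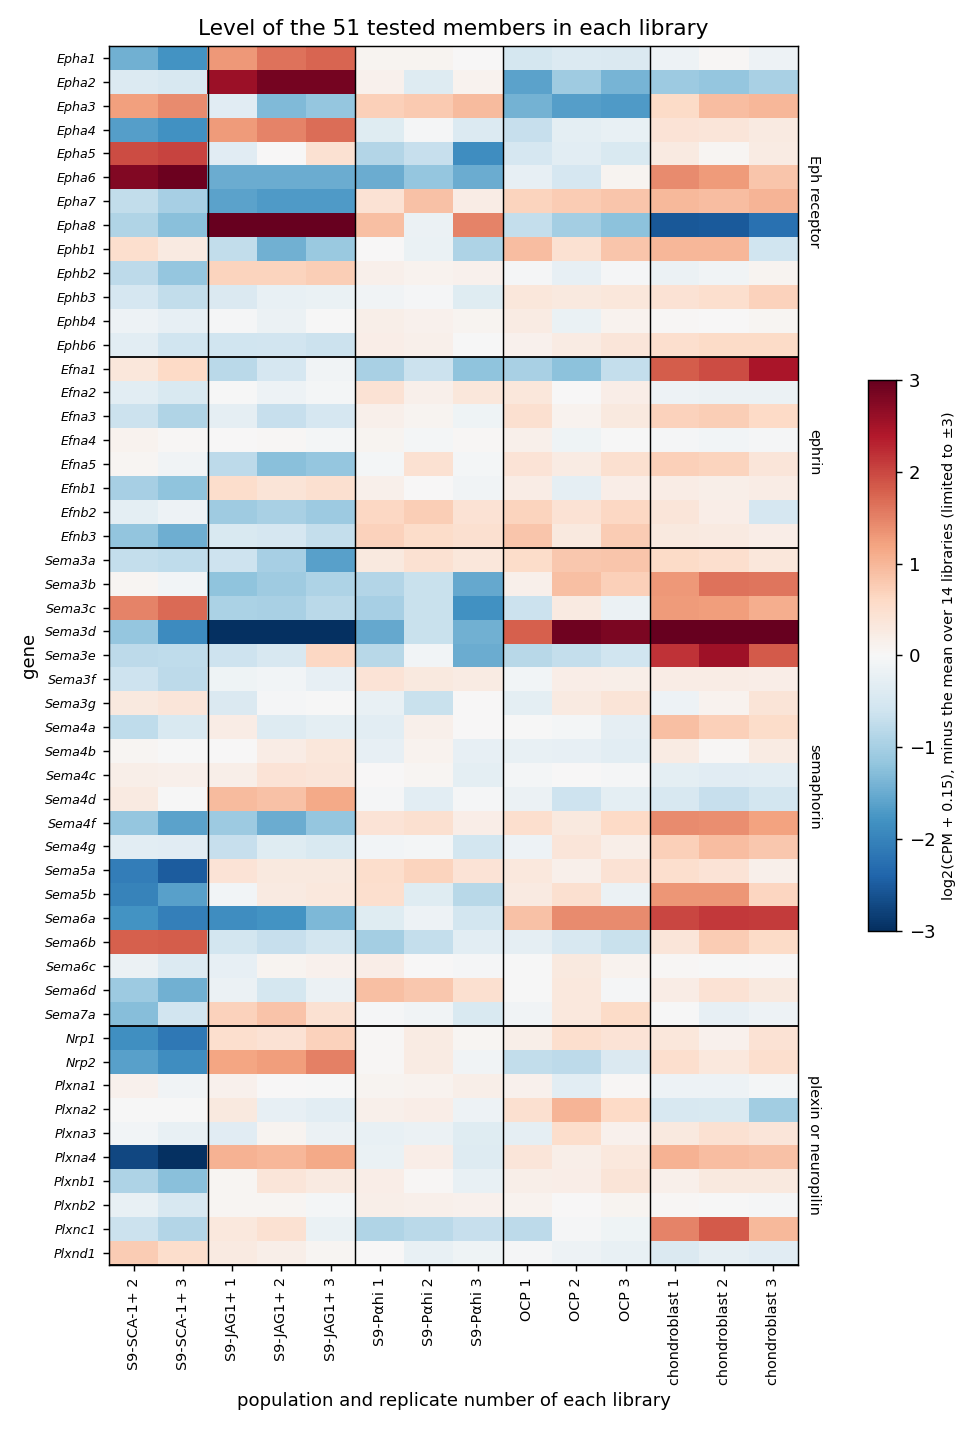
Colour plot of the 51 tested members (rows, grouped by role) in the 14 libraries (columns, by population and replicate number). Colour is log2(CPM + 0.15) minus the gene's mean over the 14 libraries, limited to ±3. Epha1, Epha2, Epha4, Epha8 and Nrp2 are highest in the 3 S9-JAG1+ libraries, and Sema3d and Sema6a in the 3 chondroblast libraries.

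Each population was then set against the mean of the log2 levels of the other 4, with calls needing both an adjusted p up to 0.1 and a log2 fold change of 1.2 or more in either direction. In S9-SCA-1+ cells 5 members were higher (4.46% of all genes) and 16 were lower (6.80%), 21 in all, or 17 without S9-SCA-1+ replicate 3 and 21 without replicate 2. In S9-JAG1+ LMPs 7 were higher (2.88% of all genes) and 12 were lower (7.70%). S9-Pαhi LMPs had 1 higher member (1.53%) and 4 lower (2.31%), and 3 in all (each lower) when S9-Pαhi replicate 3 was left out. OCPs had 2 higher (3.37%) and 3 lower (1.64%), but 9 in all when either the S9-SCA-1+ cells or the chondroblasts were left out of the comparison. Leaving out a population also changes the mean that OCPs are set against. The shares of all genes in these alternatives are not given, so their counts are not read as a trait of the members. In chondroblasts 12 were higher (11.0% of all genes) and 2 were lower (1.71%). The 5 comparisons share their libraries, so their counts are not independent of each other. Over the 51 members the median log2 fold change was -0.53 in S9-SCA-1+ cells (-0.01 over all genes) and 0.54 in chondroblasts (0.05 over all genes), and -0.10, 0.07 and 0.19 in S9-JAG1+ LMPs, S9-Pαhi LMPs and OCPs.

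Neighbouring populations were also compared directly. Of the members, 7 members were higher (4.42% of all genes) and 5 lower (2.58%) in S9-Pαhi LMPs than in S9-JAG1+ LMPs. Between OCPs and S9-Pαhi LMPs, 4 were higher in OCPs (3.48%) and 3 lower (1.36%). Chondroblasts had 7 members above their level in OCPs (6.60%) and 2 below (1.16%).

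**Figure D2:**
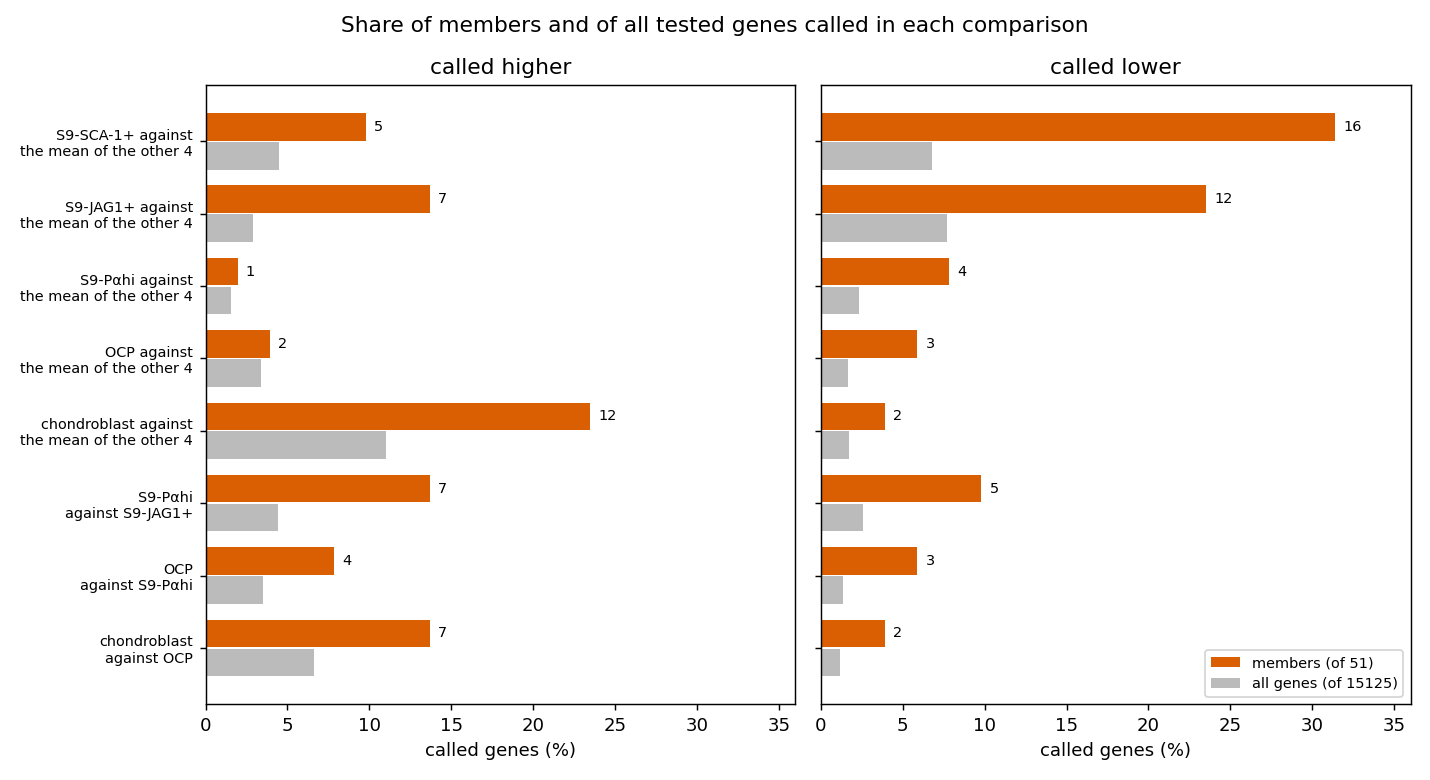
Share of called genes (x axis, percent) in each comparison (rows), higher on the left and lower on the right, for the 51 members (orange, with the number of members) and for all 15125 genes tested (grey). The longest bars are the 16 members lower in S9-SCA-1+ cells, against 6.80% of all genes, the 12 lower in S9-JAG1+ LMPs, against 7.70%, and the 12 higher in chondroblasts, against 11.0%.

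The 250 bases before the annotated start are printed for genes that share their highest population. They are Epha4, Epha2 and Nrp2 for S9-JAG1+ LMPs, and Epha7, Sema3d and Efna1 for chondroblasts. Below the highest population their orders were not all the same, as Efna1 was lowest in OCPs and Sema3d in S9-JAG1+ LMPs. RefSeq windows (GRCm38.p6) were found for 47 of the 53 members (61 windows). The sequences are 5′ to 3′ on the strand of the gene, in lower case, with the GC box GGGCGG or its complement CCGCCC in capitals. They lie at chr1:77515089-77515338, minus strand (Epha4), chr4:141300971-141301220, plus strand (Epha2), chr1:62703067-62703316, plus strand (Nrp2), chr4:28812881-28813130, plus strand (Epha7, first of 2 windows), chr5:12382916-12383165, plus strand (Sema3d) and chr3:89280952-89281201, minus strand (Efna1, first of 2 windows).
Epha4: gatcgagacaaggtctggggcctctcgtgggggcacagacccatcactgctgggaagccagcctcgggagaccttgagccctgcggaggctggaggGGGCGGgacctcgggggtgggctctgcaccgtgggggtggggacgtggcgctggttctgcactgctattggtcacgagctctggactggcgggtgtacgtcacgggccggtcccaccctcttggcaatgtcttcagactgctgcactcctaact
Epha2: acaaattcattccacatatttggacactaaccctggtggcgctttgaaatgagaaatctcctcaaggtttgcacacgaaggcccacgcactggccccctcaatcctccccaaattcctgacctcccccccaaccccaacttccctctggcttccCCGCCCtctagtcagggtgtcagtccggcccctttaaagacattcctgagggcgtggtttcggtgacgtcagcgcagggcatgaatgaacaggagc
Nrp2: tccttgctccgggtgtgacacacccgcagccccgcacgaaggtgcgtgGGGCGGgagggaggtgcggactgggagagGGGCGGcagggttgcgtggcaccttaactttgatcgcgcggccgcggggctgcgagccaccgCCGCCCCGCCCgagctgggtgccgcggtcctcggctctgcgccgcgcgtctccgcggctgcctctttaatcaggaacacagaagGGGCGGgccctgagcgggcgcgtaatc
Epha7: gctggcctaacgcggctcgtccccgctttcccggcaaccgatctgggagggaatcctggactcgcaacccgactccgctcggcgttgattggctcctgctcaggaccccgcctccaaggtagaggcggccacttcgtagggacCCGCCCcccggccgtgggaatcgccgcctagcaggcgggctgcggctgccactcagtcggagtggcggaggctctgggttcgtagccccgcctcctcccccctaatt
Sema3d: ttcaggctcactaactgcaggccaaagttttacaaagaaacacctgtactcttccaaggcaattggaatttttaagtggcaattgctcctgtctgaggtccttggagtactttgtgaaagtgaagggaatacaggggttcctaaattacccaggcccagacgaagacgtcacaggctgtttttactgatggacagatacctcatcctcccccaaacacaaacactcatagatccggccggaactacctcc
Efna1: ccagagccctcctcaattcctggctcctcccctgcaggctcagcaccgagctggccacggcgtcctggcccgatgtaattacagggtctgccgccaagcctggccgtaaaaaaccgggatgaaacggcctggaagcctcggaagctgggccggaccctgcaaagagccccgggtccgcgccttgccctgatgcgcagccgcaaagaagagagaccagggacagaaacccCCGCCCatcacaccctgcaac

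Nrp2 held 5 GC boxes between 27 and 202 bases before the start, Epha4, Epha2, Epha7 and Efna1 held 1 each, and Sema3d held none. The Sema3d window was also the poorest of the 6 in G and C (46.8%, with 4 CpG pairs), and the Nrp2 window the richest (72.4%, with 32). On either strand, the GC box was in 46 of the 61 member windows (75.4%), in 56.2% of the windows of all genes tested and in 32.7% of all 32851 windows. The TATA box TATAAA was in 1 member window, of Efnb2 (1.64%, against 6.79% for genes tested and 12.4% of all). The letters CCAAT were in 31.1% (35.2% and 33.8%), and ACAAT, the core of the sequence bound by SOX factors, in 18% (18.3% and 27.7%). CCAAT and ACAAT share the letters CAAT, and 2 of the GC boxes of Nrp2 overlap. Member windows had a median of 64.4% G and C, against 59.6% for windows of genes tested and 52.4% for all windows. The part of base composition in these shares was not tested. A match is a description of the letters and not a bound site.

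Of the 13 Eph receptors tested, 4 were higher in S9-JAG1+ LMPs (2.88% of all genes) and 4 lower (7.70%). Epha4, a receptor for ephrins of both classes known for steering motor axons into the limb, had 532, 616 and 702 CPM in S9-JAG1+ LMPs, 291, 285 and 267 in chondroblasts, 173, 216 and 166 in S9-Pαhi LMPs, 137, 181 and 189 in OCPs and 70.4 and 62.8 in S9-SCA-1+ cells. Its S9-JAG1+ libraries lay above all others and its S9-SCA-1+ libraries below all others, and only S9-Pαhi LMPs and OCPs overlapped among neighbours in this order. The log2 fold change was 1.99 ± 0.10 (SE) in S9-JAG1+ LMPs and -2.03 ± 0.15 in S9-SCA-1+ cells (adjusted p = 1.72e-09 and 1.15e-07, edgeR). With the gene lengths used here, Epha4 had the highest level per length of any member in S9-JAG1+ LMPs (97.5 CPM per kb). Nrp2 followed with 84.7 CPM per kb. The longest transcript of Nrp2 is shorter than the length used (6723 and 8122 bases), so the order of these genes depends on the length chosen.

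Epha2, the main receptor of ephrin-A1, had 73.0, 89.9 and 90.1 CPM in S9-JAG1+ LMPs, 13.4, 9.36 and 13.1 in S9-Pαhi LMPs, 9.16 and 8.76 in S9-SCA-1+ cells, 5.68, 5.37 and 6.20 in chondroblasts and 3.93, 5.80 and 4.59 in OCPs. The S9-JAG1+ libraries were well clear of the next population, and chondroblasts and OCPs overlapped at the low end (log2 fold change 3.52 ± 0.10 (SE), adjusted p = 1.52e-11, edgeR, in S9-JAG1+ LMPs). The related receptor gene Epha1 had 25.4, 31.8 and 34.6 CPM in S9-JAG1+ LMPs, 10.7, 10.7 and 10.3 in S9-Pαhi LMPs, 9.08, 10.47 and 9.11 in chondroblasts, 7.02, 7.56 and 7.49 in OCPs and 3.67 and 2.85 in S9-SCA-1+ cells. Only S9-Pαhi LMPs and chondroblasts overlapped (log2 fold change 2.13 ± 0.09 (SE), adjusted p = 5.89e-10). Epha1 shares 6.97% of its exon bases with the antisense gene Zyx, and whether counting used the strand is not given in the sources used here.

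Epha8, a receptor of A-type ephrins best known from the midbrain, had 15.1, 15.0002 and 15.2 CPM in S9-JAG1+ LMPs, 2.56, 1.13 and 3.93 in S9-Pαhi LMPs, 0.730, 0.570 and 0.470 in OCPs, 0.629 and 0.463 in S9-SCA-1+ cells and 0.101, 0.103 and 0.157 in chondroblasts. The 3 S9-JAG1+ libraries were nearly equal and above the rest, while OCPs and S9-SCA-1+ cells overlapped, and the chondroblast values stand for 3 or 4 counts each (log2 fold change 4.74 ± 0.23 (SE), adjusted p = 1.72e-09, edgeR, in S9-JAG1+ LMPs). Epha7, an EphA receptor known from distal limb mesenchyme, had 125, 120.2 and 128 CPM in chondroblasts, 101, 108 and 113 in OCPs, 85.4, 117 and 74.4 in S9-Pαhi LMPs, 37.9 and 31.4 in S9-SCA-1+ cells and 20.7, 19.5 and 19.3 in S9-JAG1+ LMPs. S9-JAG1+ libraries were the lowest and chondroblast libraries the highest, with overlap only between OCPs and S9-Pαhi LMPs. The log2 fold change was -2.03 ± 0.12 (SE) in S9-JAG1+ LMPs and 1.28 ± 0.10 in chondroblasts (adjusted p = 1.89e-08 and 1.25e-07, edgeR).

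Epha3, Epha5 and Epha6, which are closely related EphA receptors, were higher in S9-SCA-1+ cells. Epha5 had 35.4 and 37.3 CPM in S9-SCA-1+ cells, 10.8, 9.30 and 10.7 in chondroblasts, 7.06, 9.01 and 12.3 in S9-JAG1+ LMPs, 6.33, 7.18 and 6.55 in OCPs and 4.80, 5.53 and 2.34 in S9-Pαhi LMPs. The S9-SCA-1+ libraries stood clear of the rest, and chondroblasts, S9-JAG1+ LMPs and OCPs formed an overlapping middle group (log2 fold change 2.32 ± 0.18 (SE), adjusted p = 1.94e-07, edgeR, in S9-SCA-1+ cells). Epha3 had means of 66.0 ± 5.90 CPM (SD, n = 2) in S9-SCA-1+ cells, 47.2 ± 7.07 (SD, n = 3) in chondroblasts and 46.3 ± 3.85 in S9-Pαhi LMPs, but 14.2 ± 5.71 in S9-JAG1+ LMPs and 8.62 ± 0.969 in OCPs. OCPs thus lay below both S9-Pαhi LMPs (log2 fold change -2.42 ± 0.22 (SE), adjusted p = 8.53e-06) and chondroblasts (2.45 ± 0.22 for chondroblasts against OCPs, adjusted p = 4.39e-06).

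Epha6 had 2.69 and 3.06 CPM in S9-SCA-1+ cells, 0.975, 0.855 and 0.589 in chondroblasts, 0.203, 0.143 and 0.289 in OCPs, 0, 1 and 0 counts in the S9-Pαhi libraries, and 0 counts in every S9-JAG1+ library. Its mean in S9-SCA-1+ cells was at least 22.4-fold higher than in S9-JAG1+ LMPs, taking 3 counts per library as the floor. The fitted fold changes of Epha6 depend on the prior count and are not given. Without Epha6, or with its zeros at the floor, the median over members was -0.63 or -0.53 in S9-SCA-1+ cells and 0.53 or 0.54 in chondroblasts.

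Myoblast markers moved with all S9-SCA-1+ differences, at the sums given above, and their part in them was not tested. The neural crest and Schwann cell markers Erbb3, Foxd3 and Sox10 were higher in chondroblasts and in OCPs, and higher in OCPs than in S9-Pαhi LMPs. Erbb3 had 13.67 ± 4.36 CPM (SD, n = 3) in chondroblasts, 4.09 ± 1.73 in OCPs and 0.324 ± 0.0344 in S9-Pαhi LMPs, and Sox10 had 2.78 ± 0.365, 2.98 ± 1.07 and 0.0542 ± 0.0565 CPM. In S9-SCA-1+ cells Erbb3 was also called higher, but Sox10 lower (3.56 ± 0.254 and 0.0890 ± 0.126 CPM, SD, n = 2). Foxd3 was near the floor, with at most 12 counts in a library. Of 7 neuron markers, Nefm and Stmn2 were higher in chondroblasts, while Elavl3 had its lowest mean there and Tubb3 and Isl1 their highest in S9-SCA-1+ cells (sums 28.3 to 32.8 CPM in chondroblasts, 10.9 to 25.8 elsewhere). Of 9 ectoderm markers 5 were tested, and Epcam, Fgf8 and Krt18 were higher in chondroblasts, while Krt8 had its lowest mean there (sums 20.1 to 23.9 CPM, 6.37 to 14.9 elsewhere). Fgf8 and Trp63 were also called higher and Krt18 lower in S9-SCA-1+ cells, and Krt18 higher and Fgf8 lower in OCPs. Of 7 endothelial markers 6 were tested. Tie1 was called higher in S9-Pαhi LMPs, Tek lower in OCPs, and Emcn and Tie1 lower in chondroblasts. Their sums were 4.59 to 9.78 CPM in S9-Pαhi LMPs and 2.24 to 5.77 elsewhere. The part of these cells in the chondroblast, OCP, S9-Pαhi and S9-SCA-1+ differences was not tested.

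EphB receptors bind mainly ephrin-B. Population means were 265 to 334 CPM for Ephb4, the venous partner of ephrin-B2, 87.8 to 196 for Ephb3, 64.8 to 205 for Ephb2, 17.1 to 38.1 for the kinase-dead Ephb6 and 2.21 to 8.18 for Ephb1. Ephb2 was clear of all other libraries in S9-JAG1+ LMPs, and Ephb3 and Ephb6 in chondroblasts, all under the fold limit. Ephb1 was the only EphB gene called for any single population, as lower in S9-JAG1+ LMPs (log2 fold change -1.49 ± 0.33 (SE), adjusted p = 0.0022).

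**Figure D3:**
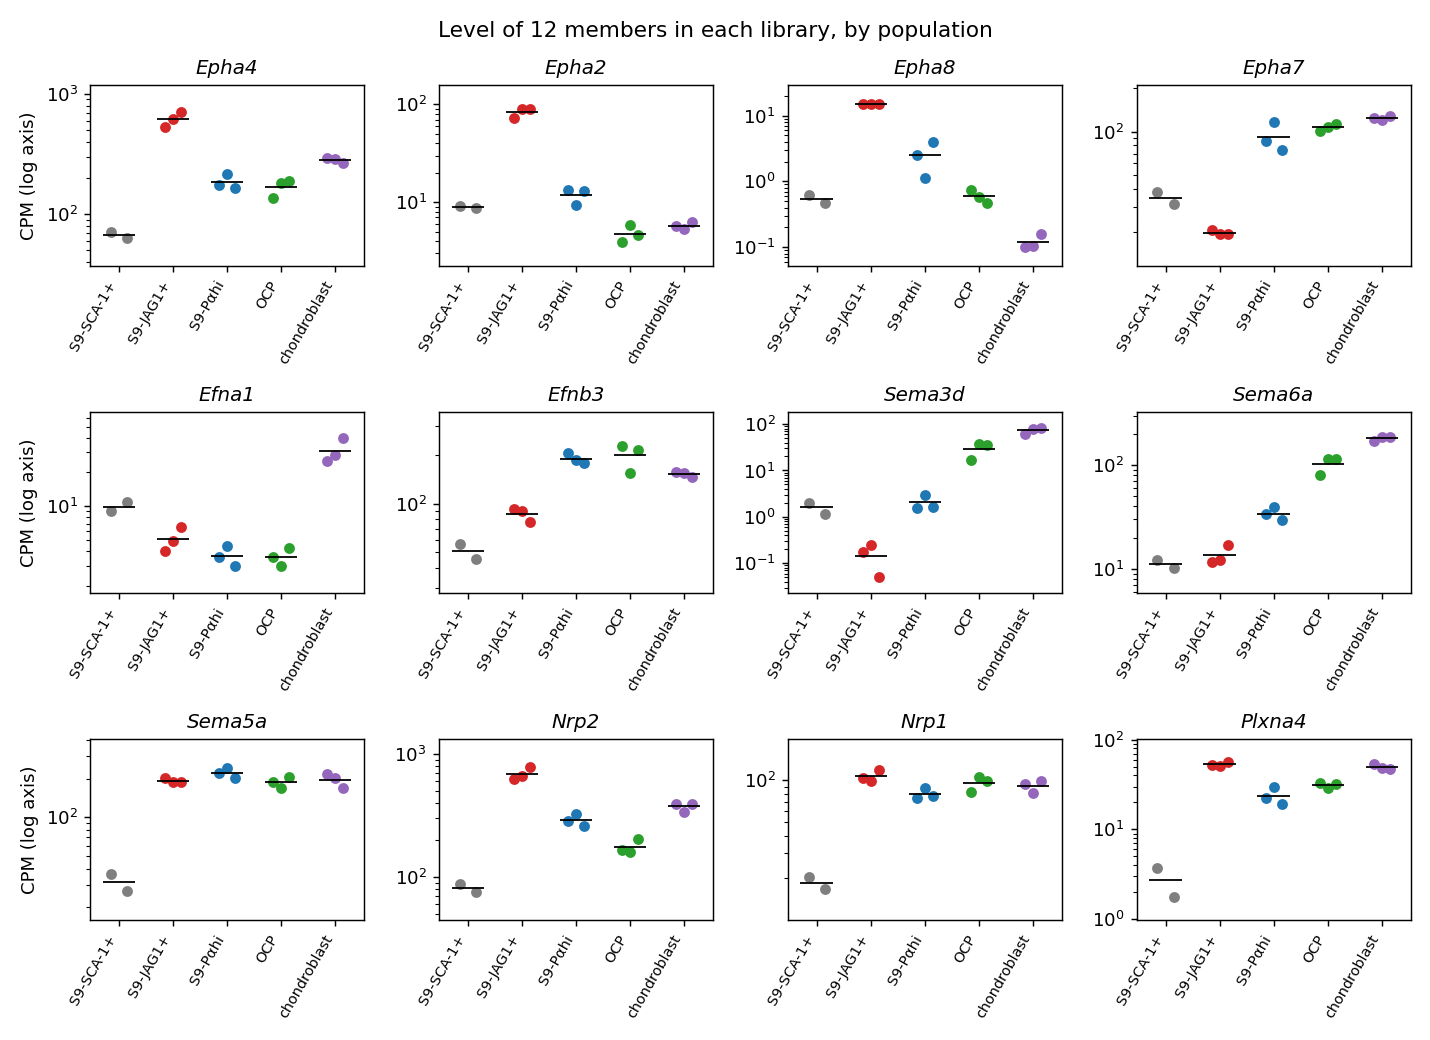
Level of 12 members (panels) in each library, by population (x axis), as CPM on a log axis. Points are libraries and lines are population means. A value of 0 (Sema3d in 1 S9-JAG1+ library) is drawn at 0.05 CPM. Epha4, Epha2, Epha8 and Nrp2 peak in S9-JAG1+ LMPs, Sema3d and Sema6a climb from S9-JAG1+ LMPs over S9-Pαhi LMPs and OCPs to chondroblasts, and Sema5a, Nrp1 and Plxna4 are low in S9-SCA-1+ cells.

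Of the 8 ephrins, 1 was called higher in chondroblasts (11.0% of all genes), 2 lower in S9-JAG1+ LMPs (7.70%) and 2 lower in S9-SCA-1+ cells (6.80%), and Efna1 lower in both S9-Pαhi LMPs and OCPs. Efna1, which encodes ephrin-A1, had 25.3, 28.1 and 39.6 CPM in chondroblasts, 9.02 and 10.9 in S9-SCA-1+ cells, 4.02, 4.94 and 6.62 in S9-JAG1+ LMPs, 3.58, 4.47 and 2.99 in S9-Pαhi LMPs and 3.57, 2.95 and 4.27 in OCPs. Chondroblast libraries lay above all others, and S9-JAG1+ LMPs, S9-Pαhi LMPs and OCPs overlapped at the bottom (log2 fold change 2.59 ± 0.15 (SE), adjusted p = 9.84e-09, edgeR, in chondroblasts). Efna5, which encodes the axon repellent ephrin-A5, had 71.5, 69.5 and 56.0 CPM in chondroblasts, 58.0, 51.9 and 60.4 in OCPs, 41.8, 59.3 and 41.7 in S9-Pαhi LMPs, 45.4 and 40.1 in S9-SCA-1+ cells and 25.2, 18.1 and 19.3 in S9-JAG1+ LMPs. S9-JAG1+ libraries were below all others, and each other population overlapped its neighbour (log2 fold change -1.33 ± 0.14 (SE), adjusted p = 3.34e-06).

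Efnb2, a ligand of Ephb4 and of Epha4, had 223, 243 and 195 CPM in S9-Pαhi LMPs, 231, 197 and 225 in OCPs, 186, 165 and 101 in chondroblasts, 119 and 131 in S9-SCA-1+ cells and 69.2, 74.0 and 67.9 in S9-JAG1+ LMPs. S9-JAG1+ libraries again lay below all others, S9-Pαhi LMPs and OCPs overlapped at the top, and chondroblast replicate 3 lay below both S9-SCA-1+ libraries (log2 fold change -1.30 ± 0.14 (SE), adjusted p = 7.56e-06, edgeR, in S9-JAG1+ LMPs). Efnb1, the X-linked ephrin needed for craniofacial and skeletal patterning, had 260.5, 238 and 256 CPM in S9-JAG1+ LMPs, 211, 205 and 213 in chondroblasts, 213, 150.3 and 208 in OCPs, 201, 184 and 170.3 in S9-Pαhi LMPs and 91.6 and 78.3 in S9-SCA-1+ cells. Here S9-JAG1+ libraries were the highest and S9-SCA-1+ libraries the lowest (log2 fold change -1.29 ± 0.12 (SE), adjusted p = 1.41e-06, in S9-SCA-1+ cells). Without S9-SCA-1+ replicate 3 that value was -1.18, under the fold limit.

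Efnb3, an ephrin known as a midline barrier for axons, had 227, 155 and 215 CPM in OCPs, 205, 186 and 177 in S9-Pαhi LMPs, 157, 155 and 146 in chondroblasts, 92.6, 89.8 and 77.2 in S9-JAG1+ LMPs and 56.4 and 45.8 in S9-SCA-1+ cells. S9-SCA-1+ and S9-JAG1+ libraries lay below all others, and OCPs and S9-Pαhi LMPs overlapped (log2 fold change -1.55 ± 0.14 (SE), adjusted p = 8.29e-07, edgeR, in S9-SCA-1+ cells). The other ephrins were not called for any single population, with population means of 102 to 166 CPM for Efna2, 53.9 to 58.9 for Efna4 and 4.65 to 13.0 for Efna3. Antisense genes share 10.51% of the exon bases of Efna4 and 14.6% of those of Efna3.

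In chondroblasts 7 of 20 semaphorins were higher, where 11.0% of all genes were. Sema3d, a secreted semaphorin that binds neuropilin-1, had 60.7, 76.7 and 83.3 CPM in chondroblasts, 16.8, 37.0 and 34.8 in OCPs, 1.55, 2.93 and 1.64 in S9-Pαhi LMPs, 2.03 and 1.17 in S9-SCA-1+ cells and 0.171, 0.251 and 0 in S9-JAG1+ LMPs. Chondroblast libraries lay above all OCP libraries and these above all others, and the S9-JAG1+ values stand for 4, 6 and 0 counts (log2 fold change 5.25 ± 0.24 (SE), adjusted p = 1.36e-09, edgeR, in chondroblasts). Sema6a, a transmembrane ligand of plexins A2 and A4, had 172, 187 and 185 CPM in chondroblasts, 79.7, 115 and 115 in OCPs, 33.7, 39.1 and 29.5 in S9-Pαhi LMPs, 11.8, 12.3 and 16.8 in S9-JAG1+ LMPs and 12.3 and 10.2 in S9-SCA-1+ cells. The order was the same at its upper end, with no overlap between chondroblasts, OCPs and S9-Pαhi LMPs and with overlap between S9-JAG1+ LMPs and S9-SCA-1+ cells (log2 fold change 2.74 ± 0.11 (SE), adjusted p = 7.03e-10).

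The steps between neighbouring populations were tested too. Sema3d differed by 3.86 ± 0.67 (log2, SE) between S9-Pαhi and S9-JAG1+ LMPs, by 3.83 ± 0.35 between OCPs and S9-Pαhi LMPs and by 1.32 ± 0.28 between chondroblasts and OCPs (adjusted p = 8.18e-04, 1.01e-05 and 0.00388, edgeR). Sema6a differed by 1.32 ± 0.17 and 1.59 ± 0.16 in the first and second step (adjusted p = 5.46e-05 and 2.31e-05), and by 0.82 ± 0.16 in the third (adjusted p = 0.00184), under the fold limit.

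Sema4f, a transmembrane semaphorin of class 4, had 9.75, 9.61 and 8.44 CPM in chondroblasts, 5.07, 4.42 and 5.46 in OCPs, 4.80, 5.00 and 4.08 in S9-Pαhi LMPs, 1.58, 1.17 and 1.51 in S9-JAG1+ LMPs and 1.504 and 1.07 in S9-SCA-1+ cells. Chondroblasts were highest, and OCPs overlapped S9-Pαhi LMPs as S9-JAG1+ LMPs overlapped S9-SCA-1+ cells (log2 fold change 1.86 ± 0.12 (SE), adjusted p = 3.34e-08, edgeR, in chondroblasts). Sema5a, a transmembrane semaphorin with thrombospondin repeats, had 221, 241 and 203 CPM in S9-Pαhi LMPs, 217, 204 and 169 in chondroblasts, 204, 187 and 188 in S9-JAG1+ LMPs, 189.7, 169.7 and 206 in OCPs and 36.2 and 26.7 in S9-SCA-1+ cells. The 4 other populations each overlapped their neighbour in this order, and both S9-SCA-1+ libraries lay far below them (log2 fold change -2.67 ± 0.14 (SE), adjusted p = 3.49e-09). Its relative Sema5b had 7.70, 7.63 and 4.75 CPM in chondroblasts, 3.61, 4.18 and 2.60 in OCPs, 2.78, 3.65 and 3.73 in S9-JAG1+ LMPs, 4.27, 2.29 and 1.59 in S9-Pαhi LMPs and 0.629 and 0.855 in S9-SCA-1+ cells, again lowest in S9-SCA-1+ cells (log2 fold change -2.36 ± 0.38 (SE), adjusted p = 2.09e-04).

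Of the other class 3 semaphorins, Sema3c, known from the cardiac outflow tract, had means of 22.6 ± 2.33 CPM (SD, n = 2) in S9-SCA-1+ cells and 17.3 ± 1.24 (SD, n = 3) in chondroblasts, and 3.41 to 6.75 in the rest. It was called higher in both of these populations. Sema3b (means 2.86 to 18.0 CPM) and Sema3e, the ligand of plexin D1 (0.176 to 2.44 CPM), were called higher in chondroblasts. Sema3a, the classical repellent of neuropilin-1 axons, had means of 31.5 to 107 CPM and was called lower in S9-JAG1+ LMPs (log2 fold change -1.24 ± 0.15 (SE), adjusted p = 2.00e-05). Sema3f, the ligand of neuropilin-2, had means of 85.0 to 171 CPM and Sema3g 0.548 to 0.900 CPM, and neither was called against the mean of the other populations.

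In class 4, Sema4d, a ligand of plexin B1, was called higher in S9-JAG1+ LMPs (means 10.1 to 30.2 CPM, log2 fold change 1.23 ± 0.10 (SE), adjusted p = 3.43e-07, edgeR). Population means were 127 to 199 CPM for Sema4c, 36.3 to 90.6 for Sema4g, 11.7 to 16.2 for Sema4b and 2.60 to 6.79 for Sema4a. In class 6, Sema6b (means 0.989 to 6.14 CPM) was called higher and Sema6d (2.40 to 10.0 CPM) lower in S9-SCA-1+ cells, while Sema6c (77.3 to 104 CPM) was not called in any of these comparisons. Sema7a, a lipid-anchored ligand of plexin C1 and of integrins, had means of 2.23 to 6.91 CPM.

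Among the receptors of semaphorins, both neuropilins were lowest in S9-SCA-1+ cells. Nrp2 had 622, 661 and 780.0 CPM in S9-JAG1+ LMPs, 394, 340.3 and 393 in chondroblasts, 283, 327 and 257 in S9-Pαhi LMPs, 166, 159 and 204 in OCPs and 88.4 and 75.3 in S9-SCA-1+ cells. No neighbouring populations overlapped, which held for no other member (log2 fold change 1.79 ± 0.09 (SE), adjusted p = 2.10e-09 in S9-JAG1+ LMPs and log2 fold change -2.05 ± 0.14 (SE), adjusted p = 4.19e-08 in S9-SCA-1+ cells, edgeR). Nrp1 had 104, 99.5 and 119 CPM in S9-JAG1+ LMPs, 82.7, 105 and 98.6 in OCPs, 93.5, 80.7 and 98.8 in chondroblasts, 75.3, 88.0 and 77.1 in S9-Pαhi LMPs and 20.5 and 16.6 in S9-SCA-1+ cells. Each of the 4 populations above S9-SCA-1+ cells overlapped its neighbour (log2 fold change -2.33 ± 0.13 (SE), adjusted p = 8.84e-09).

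Plxna4, which signals for Sema3a with neuropilin-1 and also binds Sema6a, had 52.8, 51.2 and 56.6 CPM in S9-JAG1+ LMPs, 52.9, 48.5 and 46.8 in chondroblasts, 32.8, 28.9 and 32.0 in OCPs, 22.4, 29.5 and 19.4 in S9-Pαhi LMPs and 3.71 and 1.74 in S9-SCA-1+ cells. S9-JAG1+ LMPs and chondroblasts overlapped at the top, and S9-SCA-1+ libraries were far below the rest (log2 fold change -3.78 ± 0.23 (SE), adjusted p = 1.98e-08, edgeR, in S9-SCA-1+ cells). Plxna2, a receptor of Sema6a, had 50.0, 72.8 and 54.4 CPM in OCPs, 39.8, 40.9 and 32.4 in S9-Pαhi LMPs, 35.9 and 35.4 in S9-SCA-1+ cells, 44.1, 30.3 and 28.8 in S9-JAG1+ LMPs and 25.8, 26.1 and 17.3 in chondroblasts. OCPs were the highest and chondroblasts the lowest, without overlap with others. The value for OCPs passed the p limit but not the fold limit (log2 fold change 0.88 ± 0.14 (SE), adjusted p = 6.04e-04), and chondroblasts were called lower than OCPs (-1.35 ± 0.19, adjusted p = 2.11e-04).

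Plxnc1, the receptor of Sema7a, had 7.03, 9.10 and 4.91 CPM in chondroblasts, 3.08, 3.39 and 2.10 in S9-JAG1+ LMPs, 1.34, 2.38 and 2.21 in OCPs, 1.504 and 1.25 in S9-SCA-1+ cells and 1.22, 1.32 and 1.44 in S9-Pαhi LMPs. Chondroblast libraries were above all others, and the remaining populations overlapped (log2 fold change 1.97 ± 0.19 (SE), adjusted p = 1.27e-06, edgeR, in chondroblasts). The remaining plexins were broadly expressed, with population means of 364 to 515 CPM for Plxnb2, 252 to 298 for Plxna1, 118 to 299 for Plxnb1, 54.6 to 85.0 for Plxna3 and 17.8 to 35.6 for Plxnd1. Of these only Plxnb1 was called against the mean of the other populations, as lower in S9-SCA-1+ cells (log2 fold change -1.27 ± 0.12 (SE), adjusted p = 1.96e-06). Plxna1 shares 10.7% of its exon bases with an antisense gene.

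Levels per exon length were summed over each class to set ligands beside receptors. EphA receptors summed to 139 ± 16.1 CPM per kb (SD, n = 3) in S9-JAG1+ LMPs, 77.8 ± 0.677 in chondroblasts, 59.8 ± 6.15 in S9-Pαhi LMPs, 46.8 ± 5.17 in OCPs and 40.2 ± 0.0119 in S9-SCA-1+ cells. Epha4 made up 70.2% of the sum in S9-JAG1+ LMPs, and Epha3 led with 41.3% in S9-SCA-1+ cells. Ephrin-A ligands ranged only from 103 ± 5.15 in S9-SCA-1+ cells to 132 ± 2.39 CPM per kb in chondroblasts, led everywhere by Efna2. Ephrin-B ligands summed to 169 ± 26.5 CPM per kb in OCPs and 165 ± 12.7 in S9-Pαhi LMPs, but 118 ± 3.75 in S9-JAG1+ LMPs and 70.1 ± 3.25 in S9-SCA-1+ cells (SD, n = 2).

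Neuropilins summed to 103 ± 11.7 CPM per kb in S9-JAG1+ LMPs (SD, n = 3) and 13.2 ± 1.60 in S9-SCA-1+ cells (SD, n = 2), with no overlap with other populations in either case. Both sums would be higher with the longest transcripts, which are shorter than the lengths used for Nrp1 (3645 and 5920 bases) and Nrp2 (6723 and 8122). Plexin-A receptors were nearly level, at 42.5 ± 4.29 to 47.9 ± 1.199 CPM per kb. Plexin-B receptors were level at 104 ± 0.229 to 108 ± 4.28 CPM per kb outside S9-SCA-1+ cells, where they summed to 68.4 ± 8.67. Class 3 semaphorins had their lowest sum in S9-SCA-1+ cells (36.2 ± 1.67 CPM per kb) and their highest in chondroblasts (77.8 ± 1.42), and class 6 semaphorins likewise (22.0 ± 2.39 and 50.9 ± 0.926). Sema6c led class 6 in every population but chondroblasts, where Sema6a made up 51.7%.

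**Figure D4:**
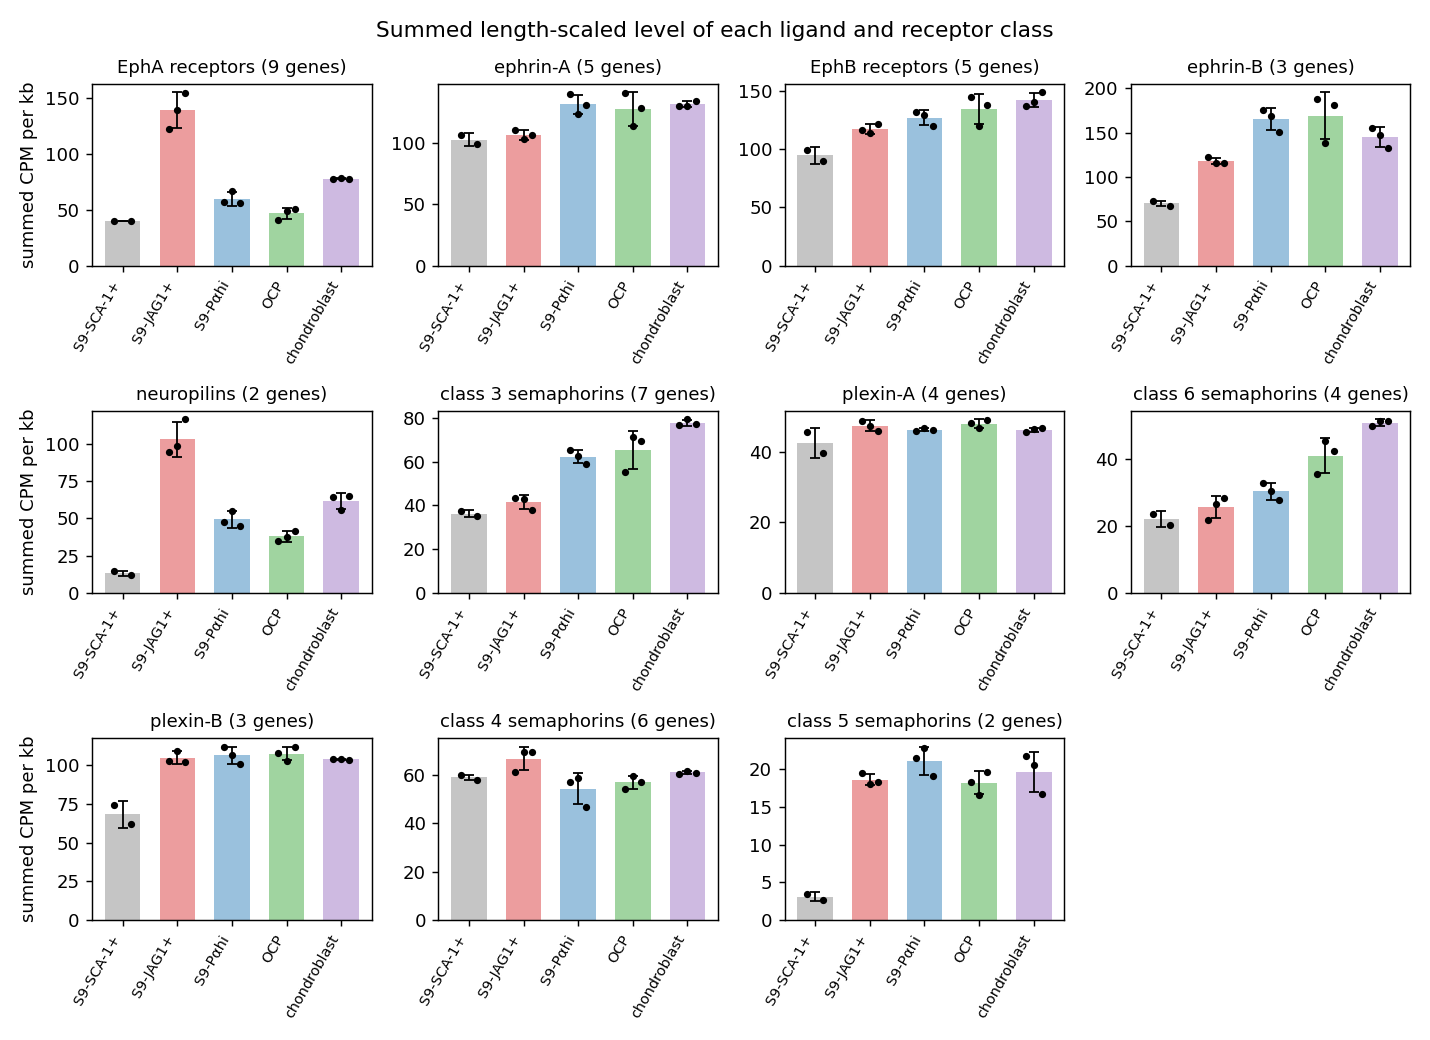
Summed level of 11 ligand and receptor classes (panels) by population (x axis), in CPM per kb of exon. Bars are means, error bars are SD (n = 3, or 2 for S9-SCA-1+ cells) and points are libraries. EphA receptors and neuropilins are highest in S9-JAG1+ LMPs, class 3 and class 6 semaphorins in chondroblasts, and plexin-A receptors are nearly level.

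Among 37 pairs of a ligand and a receptor known to bind, 6 had both genes highest in the same population. Of the 31 pairs in which both genes passed the joint test, 4 did. The pairs left out held Efna4, Plxna1 or Plxnb3, which failed the joint test or were not tested. How often unrelated genes share their highest population was not computed, so these counts are not read as a trait of partners. Epha2 and its ligand Efna1 peaked apart, the receptor in S9-JAG1+ LMPs (21.4 CPM per kb, ligand 3.16) and the ligand in chondroblasts (18.9 CPM per kb, receptor 1.46). Of 5 listed ligands of Epha4, Efna5 and Efnb2 had their lowest level in S9-JAG1+ LMPs, which held 97.5 CPM per kb of Epha4, 3.96 of Efna5 and 16.3 of Efnb2. In chondroblasts the same genes had 44.5, 12.5 and 34.9 CPM per kb. The other 3 ligands were not at their lowest in S9-JAG1+ LMPs, at 3.16 CPM per kb for Efna1, 4.67 for Efna3 and 35.1 for Efna4. The list of pairs is not complete, so an ephrin not listed for Epha4 may still bind it. The unlisted ephrins were all lowest in S9-SCA-1+ cells. In S9-JAG1+ LMPs they had 59.6 (Efna2), 74.9 (Efnb1) and 26.9 (Efnb3) CPM per kb. Epha7 and Efna5 were both highest in chondroblasts (15.6 and 12.5 CPM per kb) and both lowest in S9-JAG1+ LMPs (2.48 and 3.96).

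For semaphorins, Sema6a reached 26.3 CPM per kb in chondroblasts, where its receptor Plxna2 was at its lowest (2.09 CPM per kb). Its receptor Plxna4 stood there at 3.92, near its highest mean of 4.25 in S9-JAG1+ LMPs. Sema3d differed between 0.0216 CPM per kb in S9-JAG1+ LMPs and 11.3 in chondroblasts, while Nrp1 was present at 13.5 to 18.2 in all populations but S9-SCA-1+ cells (3.13). These are RNA levels in sorted pools, and which cells touch in the limb bud was not measured.

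Signalling partners of both systems were taken from lists of genes known to act with them. Of 37 tested effectors and partners of Eph and ephrin signals, such as exchange factors and adaptors, 24 passed the joint test, against 74.8% of all genes. In S9-SCA-1+ cells 4 were higher (4.46% of all genes) and 1 lower (6.80%), and in S9-JAG1+ LMPs 1 was higher (2.88%) and 1 lower (7.70%). Further, 2 were lower in S9-Pαhi LMPs (2.31%) and 4 in OCPs (1.64%). In chondroblasts 0 were called by edgeR (11.0% of all genes were higher and 1.71% lower) and 0 by DESeq2. At an unadjusted p under 0.05 in edgeR there were 16, a count that uses no fold limit. The largest fold change in this list was that of Cxcr4, a chemokine receptor known from migrating muscle precursors, at 86.4 ± 7.66 CPM (SD, n = 2) in S9-SCA-1+ cells and 1.23 ± 0.628 (SD, n = 3) in chondroblasts. Of 41 tested semaphorin and plexin effectors and co-receptors, 37 passed the joint test (74.8% of all genes). In S9-SCA-1+ cells 4 were higher (4.46%) and 2 lower (6.80%), and in S9-JAG1+ LMPs 2 were higher (2.88%) and 4 lower (7.70%). In S9-Pαhi LMPs 1 was higher (1.53%) and 2 lower (2.31%), in OCPs 2 higher (3.37%) and 1 lower (1.64%), and in chondroblasts 1 higher (11.0%) and 1 lower (1.71%). Met, also a myoblast marker, had the largest fold change in this list, with 689 ± 42.0 CPM in S9-SCA-1+ cells (SD, n = 2). Crmp1, a cytoplasmic mediator of Sema3a signals, had 194 ± 11.8 CPM in S9-JAG1+ LMPs and 14.6 ± 0.502 in chondroblasts, where it was called lower (log2 fold change -2.62 ± 0.24 (SE), adjusted p = 6.19e-07, edgeR).

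Of 25 tested genes of other guidance families (netrins, Slits, their receptors, Flrt genes), all 25 passed the joint test (74.8% of all genes). In chondroblasts 11 were higher (11.0% of all genes) and 2 lower (1.71%), in S9-JAG1+ LMPs 3 higher (2.88%) and 11 lower (7.70%), and in S9-SCA-1+ cells 4 higher (4.46%) and 6 lower (6.80%). In OCPs 3 were higher (3.37%) and 2 lower (1.64%), and in S9-Pαhi LMPs 1 was lower (2.31%). Slit1, a secreted repellent, had 56.5 ± 5.39 CPM (SD, n = 2) in S9-SCA-1+ cells, and its highest mean elsewhere was 1.197 CPM. Ntn1, which encodes netrin-1, had 184 ± 33.2 CPM (SD, n = 3) in OCPs, 179 ± 82.7 in chondroblasts and 6.34 ± 0.381 in S9-JAG1+ LMPs. Its receptor gene Dcc had 27.7 ± 2.15 CPM in chondroblasts and at most 3.57 as a mean elsewhere (log2 fold change 4.59 ± 0.21 (SE), adjusted p = 1.72e-09, edgeR). The Slit receptor gene Robo2 had 392 ± 48.9 CPM in chondroblasts and 22.1 ± 5.38 in S9-SCA-1+ cells.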

How the data were processed

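RNA-seq of 14 libraries from 5 sorted forelimb bud populations was used. The deposited values are whole-number counts of reads per gene without normalization. According to the methods, the authors aligned single-end reads of poly(A) RNA with STAR to mm10, kept 1 position for reads that fit several, and used qCount of QuasR to count reads by their first base within RefSeq mRNA exons. Gene lengths in bases are those of the table. Of 24454 Entrez identifiers, 24374 were matched to symbols, and the other 80 held 0.358% of the counts. Genes were kept with filterByExpr (15125), totals were scaled by TMM, and edgeR 4.0.16 (R 4.3.3) fitted a mean for each population in 1 quasi-likelihood model. Adjustment of p values (Benjamini-Hochberg) ran across the 15125 genes. A standard error is the log2 fold change divided by the square root of F. Library-by-library values are given for Epha4, Epha7 and, in each role class, the 5 members with the largest spread of population means (log2 CPM, prior count 2) among those reaching 5 CPM. Members outside this rule are given by their means, except Epha6, given by library because of its zeros, a choice made after its values were seen. Members and lists were chosen with earlier results of these data known. Part of the neural crest and Schwann cell list is not reported here. Promoter windows are from RefSeq (GRCm38.p6). Of at least 15 motifs searched, 4 are given, chosen after their counts were seen. Replicates of a population differed by a chi-square of 7.80 to 76.3 per gene, far above sampling noise, so each was counted as 1 sample. Alternatives were DESeq2 1.42.0 (size factors, Wald test), other filters and limits, a replicate block, fewer libraries, and other lengths or totals for class sums.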

Additional observations from a re-analysis of the deposited data

How the results depend on the processing

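With no limit on the fold change, the members called were 40 in S9-SCA-1+ cells, 34 in S9-JAG1+ LMPs, 21 in S9-Pαhi LMPs, 33 in OCPs and 40 in chondroblasts against the mean of the other 4, 30 between S9-Pαhi and S9-JAG1+ LMPs, 15 between OCPs and S9-Pαhi LMPs and 28 between chondroblasts and OCPs. The matching shares of all genes are not given, so these counts do not set the members apart. In the joint test, which has no fold limit, 74.8% of all genes passed. In 2 alternatives chosen after seeing the data, OCPs had 9 called members without the S9-SCA-1+ population and 9 without the chondroblasts, in place of 5. The shares of all genes in these 2 alternatives are not given either. With each library left out in turn, S9-Pαhi LMPs had 3 to 7. All other counts of members stayed within 1.5 times of the main count under DESeq2 size factors, the DESeq2 Wald test, other filters and an adjusted p of at most 0.05. No named fold change reversed, and 1 (Efnb1) fell under the fold limit. Replicate numbers did not pair the libraries (correlations of deviations between same numbers -0.18 to 0.31, between other numbers -0.31 to 0.41, and 5 of 14 libraries closest to their own number). The check covers the numbering only. The value of 0.41 was between S9-Pαhi replicate 3 and OCP replicate 1, and pairing under other numbers was not tested. A replicate block gave 48 members in the joint test, 20, 19, 4, 5 and 14 against the mean of the other populations, in the order above, and 12, 7 and 9 in the 3 pairs. Of 140 class sums recomputed with the longest transcript or with library totals, 27 moved by more than 1 SD. Neuropilin sums depend on the length used, as given above. Genes under 3 counts per library could not be told from absent ones, and with 2 libraries the spread within S9-SCA-1+ cells was borrowed from the other populations.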
